A study of Mus musculus with 5 samples.

Results

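The 10 genes described here are the Toll-like receptors Tlr1 to Tlr9 and the co-receptor Cd14, chosen by name from the platform's probe annotation. They are 10 of the 18193 genes that the annotation names with 1 symbol each, and they hold 16 of the 45037 probe sets left after the control probe sets were set aside. The study profiled bone marrow cells enriched with magnetic beads for B220, a surface form of CD45 on developing B cells, from mice of 4 weeks on the FVB background. There were 5 Affymetrix mouse arrays: 3 of KA/KA mice, which carry the K44A kinase-dead form of IKKα on both alleles, and 2 of WT littermates. No prior treatment was given. IKKα is one of the kinases that switch on NF-κB, and the knock-in is carried in the germline, so every cell of a KA/KA mouse has it. The labels do not say whether an array holds 1 mouse or a pool, so all errors below measure the spread between arrays, which may be technical.

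Toll-like receptors are membrane proteins that recognise molecules of microbes. Tlr1, Tlr2, Tlr4, Tlr5 and Tlr6 work at the cell surface, where they bind lipoproteins, lipopolysaccharide or flagellin. Tlr3, Tlr7, Tlr8 and Tlr9 work in endosomes, where they bind RNA or DNA. Cd14 is a surface protein of monocytes, macrophages and neutrophils that hands lipopolysaccharide to Tlr4 and its partner Ly96. All receptors of the family except Tlr3 signal through the adaptor Myd88 to IKK kinases and NF-κB, and Tlr3 signals through Ticam1. B cells are known for Tlr7 and Tlr9, and so are plasmacytoid dendritic cells, which carry B220 as well. Myeloid cells of marrow and lung are known for Tlr2, Tlr4 and Cd14, and epithelial and stromal cells of lung for Tlr3.

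The marker genes on 3 of the arrays went against the labelled cells. All of 15 lung epithelial markers were higher on KA/KA 2, KA/KA 3 and WT 2 (array names as labelled) than on KA/KA 1 and WT 1, without overlap and by at least 1 log2 unit (median difference 4.84). By this rule 16.7% of all probe sets were higher and 11.3% lower. On those 3 arrays 11 of 11 measured B-lineage markers were lower (median difference -3.92), and the recombinase gene Rag1 read 4.09, 4.09 and 4.10 on log2(signal + 16), where a signal of 0 reads 4. Below, these 3 are called the lung-like arrays and the remaining 2 the marrow-like pair. The sets were drawn from 24 poly-A control probe sets, whose median signal was 136.4, 249.3 and 46.94 on the lung-like arrays against 11900 and 7305 in the marrow-like pair. They are not groups of the study, so differences between them are described here without a test. The lung-like set holds KA/KA 2, KA/KA 3 and WT 2 and the pair KA/KA 1 and WT 1, so genotype is not balanced between them. The mean and SD of each set therefore mix both genotypes. Preparation, tissue and array set cannot be told apart. Each array was scaled by the authors to a trimmed mean signal of 500, and array medians on the log2 scale ran from 6.80 to 7.17.

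Promoter windows are shown for genes whose levels moved in opposite ways between the array sets, Tlr3 (higher on the lung-like arrays) and Tlr9 and Tlr1 (lower there), and for Tlr2, whose sets overlapped. Each window runs from 250 bases before an annotated start to 50 bases from it, in the direction of the gene, as RefSeq gives it for build GRCm38.p6. Capitals mark matches on either strand to 3 motifs: GGGNNNTTCC, a form of the κB site bound by NF-κB; AANNGAAA, the core bound by interferon regulatory factors; and GAGGAA, a core bound by ETS factors such as PU.1. The motifs were chosen with the sequences in view. The windows are chr8:45410331-45410630 on the minus strand for Tlr3, chr9:106222348-106222647 on the plus strand for Tlr9, chr5:64933509-64933808 on the minus strand for Tlr1 (the more upstream of 2 starts) and chr3:83841559-83841858 on the minus strand for Tlr2.
Tlr3: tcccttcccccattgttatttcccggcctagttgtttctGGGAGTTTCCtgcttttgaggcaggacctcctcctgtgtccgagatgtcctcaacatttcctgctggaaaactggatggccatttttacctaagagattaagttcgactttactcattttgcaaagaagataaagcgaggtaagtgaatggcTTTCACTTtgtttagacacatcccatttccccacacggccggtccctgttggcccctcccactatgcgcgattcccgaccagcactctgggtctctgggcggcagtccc
Tlr9: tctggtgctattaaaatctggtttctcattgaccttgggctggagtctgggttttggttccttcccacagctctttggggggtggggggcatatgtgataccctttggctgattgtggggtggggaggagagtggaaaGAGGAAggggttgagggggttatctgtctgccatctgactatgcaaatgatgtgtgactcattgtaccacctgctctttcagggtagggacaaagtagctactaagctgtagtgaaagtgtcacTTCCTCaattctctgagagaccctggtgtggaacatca
Tlr1: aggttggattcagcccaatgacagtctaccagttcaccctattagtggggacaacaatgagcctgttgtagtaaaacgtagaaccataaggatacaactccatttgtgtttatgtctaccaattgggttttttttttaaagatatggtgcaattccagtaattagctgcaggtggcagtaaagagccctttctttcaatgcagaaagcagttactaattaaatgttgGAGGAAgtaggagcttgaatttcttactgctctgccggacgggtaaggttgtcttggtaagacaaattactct
Tlr2: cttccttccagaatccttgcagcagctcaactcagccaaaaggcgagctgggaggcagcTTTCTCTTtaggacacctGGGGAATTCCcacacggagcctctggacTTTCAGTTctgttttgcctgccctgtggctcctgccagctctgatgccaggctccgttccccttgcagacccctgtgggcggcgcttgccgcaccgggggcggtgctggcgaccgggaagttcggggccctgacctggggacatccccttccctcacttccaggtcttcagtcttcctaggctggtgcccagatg

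The Tlr3 window holds GGGAGTTTCC, a κB match that begins 211 bases before the start, and an interferon factor match that begins 59 bases before it. The Tlr2 window holds the κB match GGGGAATTCC, which begins 173 bases before the start, and 2 interferon factor matches. The Tlr9 window holds 2 ETS matches, and the Tlr1 window shown holds 1 that begins 23 bases before the start. Over 32817 windows of the same length in the table, 5.56% hold the κB letters, 23.9% the interferon factor letters and 28.3% the ETS letters, so the interferon factor and ETS letters are common. A match describes letters, and no binding was measured here. Tlr1 and Tlr6 are neighbours on chromosome 5, at 64924680 to 64933600 and 64953092 to 64970942, and Tlr8 and Tlr7 are neighbours on the X chromosome, at 167241123 to 167264329 and 167303380 to 167330574.

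Between the array sets the receptors did not divide into surface and endosomal ones. Each gene is given by its probe set of highest mean signal, and a gene is counted as apart where the 3 lung-like arrays do not overlap the marrow-like pair and the means differ by at least 1 log2 unit. Tlr3, Tlr5 and Cd14 were higher on the lung-like arrays by this count and Tlr1, Tlr7 and Tlr9 lower, so each side held a surface and an endosomal receptor. Over all non-control probe sets, 16.7% were higher and 11.3% lower by the same rule. Among 22519 probe sets at or above the median signal these shares were 20.1% and 15.5%. Of the 10 members 3 were higher and 3 lower, and whether that differs from the background was not tested. The median difference was -0.24 over 5 surface receptors and -1.18 over 4 endosomal receptors, against 0.07 over all probe sets. The endosomal median hides opposite members, since Tlr3 was the gene with the largest positive difference of all 10 and Tlr9 the one with the largest negative difference. In bulk RNA, fewer cells of a type and less RNA per cell cannot be told apart.

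**Figure D1:**
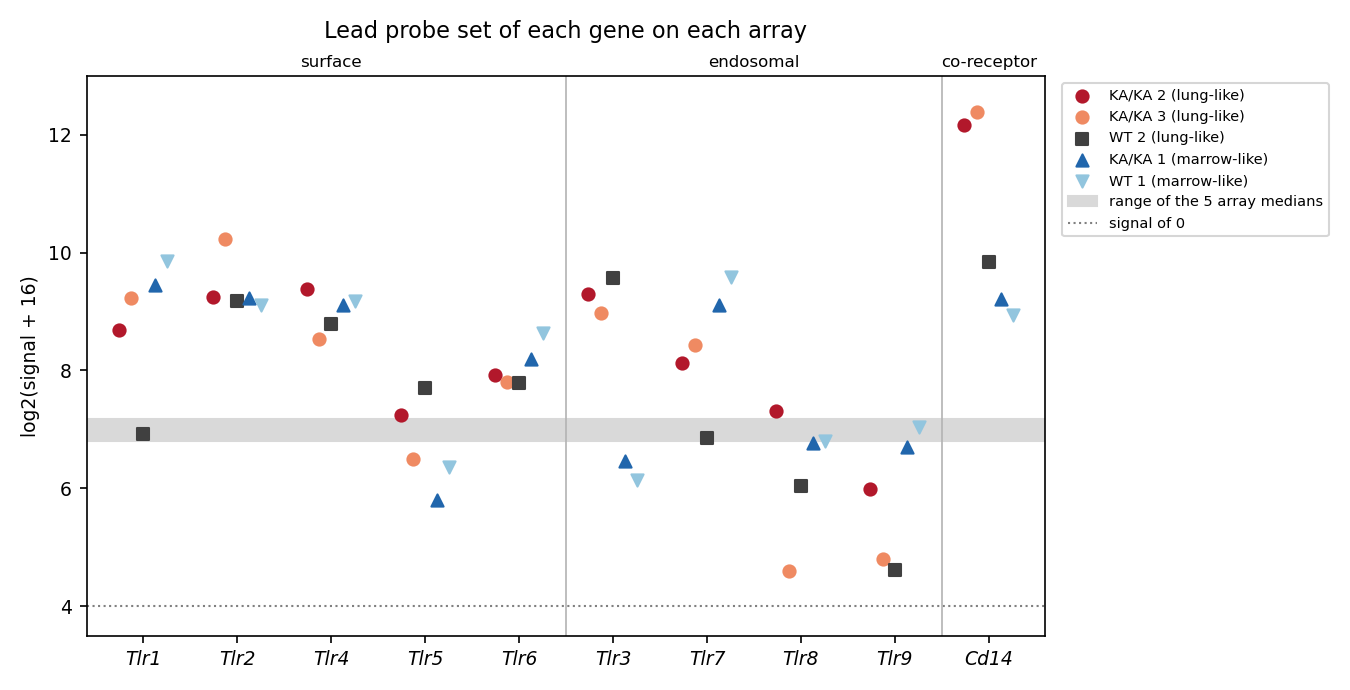
Signal of the lead probe set of each gene as log2(signal + 16) on each of the 5 arrays, with surface receptors, endosomal receptors and Cd14 from left to right. The grey band spans the 5 array medians. Tlr3 sits above the band on the lung-like arrays and below it in the marrow-like pair, Tlr1 and Tlr7 sit above it on every array but WT 2, and Tlr9 lies at or below it throughout.

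Among endosomal receptors, Tlr3, the sensor of double-stranded RNA, read 9.30 and 8.97 on the arrays KA/KA 2 and KA/KA 3 and 9.57 on WT 2, against 6.46 on KA/KA 1 and 6.14 on WT 1. Its lung-like mean was 9.28 ± 0.30 (SD, n = 3) and its marrow-like mean 6.30 ± 0.23 (SD, n = 2), a difference of 2.98 log2 units or 7.90-fold. It lay between the 73.2 and 79.5 percentile of probe sets on the lung-like arrays and between the 38.7 and 45.0 percentile in the marrow-like pair, below the middle of the array. The other Tlr3 probe set differed by 2.19 in the same direction. The lead Tlr3 probe set can match more than 1 transcript of the design, by its suffix, and the other one is not marked in this way.

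Tlr7, a sensor of single-stranded RNA, ran the other way. It read 8.12 and 8.43 on KA/KA 2 and KA/KA 3 and 6.86 on WT 2, against 9.11 on KA/KA 1 and 9.59 on WT 1, a difference of -1.55 (means 7.80 ± 0.83 and 9.35 ± 0.34, SD, n = 3 and 2). All lung-like arrays lay below both marrow-like ones, and without WT 2 the difference was -1.08. The other 2 Tlr7 probe sets were dimmer and differed by -1.06 and -1.17. The dimmer of these overlapped between the sets through KA/KA 3.

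Tlr9, the sensor of unmethylated CpG DNA, read 5.99 and 4.81 on KA/KA 2 and KA/KA 3 and 4.62 on WT 2, against 6.70 on KA/KA 1 and 7.04 on WT 1. The difference was -1.73, without overlap, but the highest of these values lay at the 53.1 percentile of its array and the rest lower. The size of this difference therefore depends on the constant added to the signal: it was -2.48 with 1 and -0.96 with 64 in place of 16. Tlr8 read 7.31 and 4.59 on KA/KA 2 and KA/KA 3 and 6.04 on WT 2, against 6.77 on KA/KA 1 and 6.80 on WT 1. The lung-like values fell on both sides of the marrow-like pair, and no array had it above the 52.4 percentile.

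Of the surface receptors, Tlr1 was the one that stood lower on the lung-like arrays by at least 1 log2 unit. Tlr1, which pairs with Tlr2 to bind triacylated lipoproteins, read 8.68 and 9.23 on KA/KA 2 and KA/KA 3 and 6.92 on WT 2, against 9.45 on KA/KA 1 and 9.86 on WT 1. The difference was -1.38 (means 8.27 ± 1.21 and 9.65 ± 0.29, SD, n = 3 and 2), and it rests on 1 array: without WT 2 it was -0.70. Tlr6, which pairs with Tlr2 to bind diacylated lipoproteins, read 7.91 and 7.81 on KA/KA 2 and KA/KA 3 and 7.79 on WT 2, against 8.20 on KA/KA 1 and 8.63 on WT 1. Its sets did not overlap, but the difference of -0.57 stayed under 1 log2 unit. Tlr5, the flagellin receptor, read 7.25 and 6.50 on KA/KA 2 and KA/KA 3 and 7.70 on WT 2, against 5.80 on KA/KA 1 and 6.36 on WT 1. It lay between the 32.7 and 57.0 percentile of the arrays, and its difference of 1.07 was the smallest of those counted as apart. With quantile normalisation, median centring or a constant of 64 Tlr5 was no longer counted.

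Tlr2, the shared partner of Tlr1 and Tlr6, was nearly level. It read 9.25 and 10.23 on KA/KA 2 and KA/KA 3 and 9.17 on WT 2, against 9.24 on KA/KA 1 and 9.12 on WT 1. KA/KA 3 alone stood out, and the set difference was 0.38. Tlr4, the lipopolysaccharide receptor, read 9.38 and 8.53 on KA/KA 2 and KA/KA 3 and 8.79 on WT 2, against 9.10 on KA/KA 1 and 9.18 on WT 1. Its 4 probe sets gave set differences of -0.65, -0.24, -0.07 and 0.36, all with overlap, and the dimmest of them lay in the lowest 26.0 percent of each array.

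Cd14 had the highest signal of the members on each lung-like array. It read 12.16 and 12.39 on KA/KA 2 and KA/KA 3 and 9.83 on WT 2, against 9.21 on KA/KA 1 and 8.93 on WT 1. The means were 11.46 ± 1.41 and 9.07 ± 0.20 (SD, n = 3 and 2), 2.39 log2 units or 5.23-fold apart. Both means mix the genotypes. Without WT 2 the difference was 3.20, while WT 2 and WT 1 alone lay less than 1 log2 unit apart. WT 2 lay much closer to the marrow-like pair than to the other lung-like arrays. On the linear scale Cd14 had a signal of 4565 and 5345 on KA/KA 2 and KA/KA 3 and 896.8 on WT 2, against 578.2 on KA/KA 1 and 472.9 on WT 1.

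**Figure D2:**
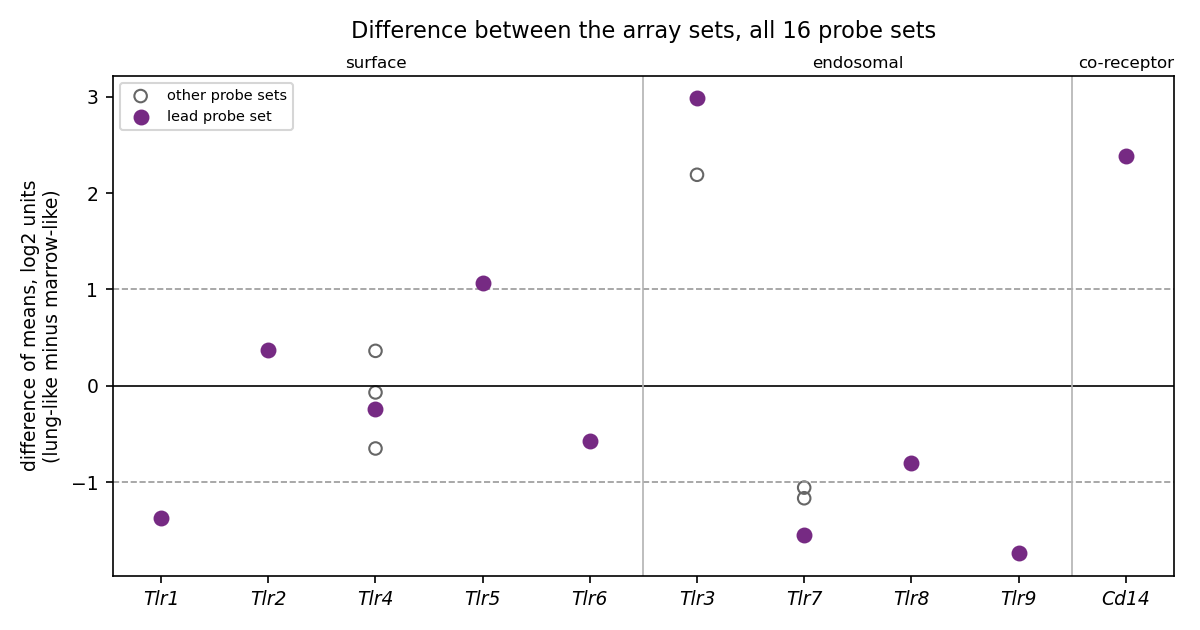
Difference of mean log2(signal + 16), lung-like minus marrow-like, for all 16 probe sets of the 10 genes; filled points are lead probe sets, open points the others, and dashed lines mark 1 log2 unit in each direction. Both Tlr3 probe sets and Cd14 lie above 2, all 3 Tlr7 probe sets and those of Tlr1 and Tlr9 below -1, and the Tlr4 probe sets lie around 0.

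Cell type markers moved between the sets as well, and their part in the receptor values was not tested. Plasmacytoid dendritic cell markers were lower on the lung-like arrays for 8 of 9 measured (median -3.54), with summed signals of 8743, 7984 and 6642 on the lung-like arrays (WT 2 the last) against 38793 and 46807 in the marrow-like pair (WT 1 the last). Neutrophil markers were lower for 7 of 11 (median -1.93). Monocyte and macrophage markers were not shifted as a list (0 higher and 3 lower of 12, median -0.03), while conventional dendritic cell markers were higher for 4 of 8 and lower for 1. Endothelial markers were higher for 9 of 10 (median 3.48), and fibroblast and smooth muscle markers for 7 of 9 (median 5.16). By the same rule 16.7% of all probe sets were higher and 11.3% lower (20.1% and 15.5% of the brighter ones).

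Inside the lung-like arrays, Cd14, Tlr1 and Tlr7 were higher with KA/KA than with WT. A gene is counted here where both KA/KA arrays lie on the same side of WT 2 by at least 1 log2 unit. Of the 10 members 3 were higher and 0 lower, while 2.96% of all probe sets were higher and 2.56% lower (3.10% and 1.65% of the brighter ones). Only 1 WT array stands behind every one of these differences, so its own departure moves them all together. With the lung-like arrays alone behind the genotype coefficient (limma without KA/KA 1), the adjusted p was 0.890 for Cd14, Tlr1 and Tlr7, and 0 of 45037 probe sets passed, with 2464 at an unadjusted p under 0.05. The spread in that fit is the one between KA/KA 2 and KA/KA 3. Cd14 differed by 2.33 and 2.55 (KA/KA 2 and KA/KA 3 minus WT 2), a mean of 5.43-fold. Tlr1 differed by 1.76 and 2.31, a mean of 4.10-fold, and Tlr7 by 1.26 and 1.57, a mean of 2.67-fold. The other 2 Tlr7 probe sets did not meet the rule: 1 differed by 0.02 and 0.30 and the other by 0.79 and 2.28. Tlr1 and Tlr7 were below the median of the array on WT 2 (46.4 and 45.5 percentile) and above it on the other 4 arrays.

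By their lead probe sets the other members had mixed or small differences on the lung-like arrays. Tlr8 differed by 1.27 on KA/KA 2 but by -1.45 on KA/KA 3, and Tlr9 by 1.37 and 0.19. Tlr2 differed by 0.08 and 1.06 and Tlr4 by 0.60 and -0.26, so the KA/KA arrays did not move alike. Tlr6 differed by 0.12 and 0.02. Tlr5 (-0.45 and -1.19) and Tlr3 (-0.27 and -0.60) were lower on both KA/KA arrays. The other Tlr3 probe set differed more, by -0.93 on KA/KA 2 and -1.43 on KA/KA 3, a mean of 2.27-fold. It did not pass 1 log2 unit on both arrays. The median over the 10 members was 0.93 on KA/KA 2 and 0.10 on KA/KA 3, against -0.03 and -0.02 over all probe sets.

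In the marrow-like pair, which holds B-lineage transcripts, no member reached 1 log2 unit in either direction. Over all probe sets 5.62% were higher and 4.08% lower by at least that much (2.85% and 1.56% of the brighter ones). KA/KA 1 minus WT 1 was 0.33 for Tlr3, 0.28 for Cd14 and 0.12 for Tlr2, and it was negative for the other 7, from -0.04 for Tlr8 to -0.56 for Tlr5. Tlr1 (-0.41), Tlr4 (-0.07), Tlr6 (-0.43), Tlr7 (-0.48) and Tlr9 (-0.34) lay between. These are lead probe sets. The other Tlr4 probe sets were positive (0.23, 0.29 and 0.49), as was the other Tlr3 probe set (0.66). Of all 16 member probe sets 7 were positive. For 5 members (Tlr1, Tlr3, Tlr6, Tlr7 and Tlr9) the sign of the lead probe set in the pair was opposite to that of both lung-like differences, as for 36.9% of all probe sets. With 1 array against 1 there is no replicate check on these values.

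**Figure D3:**
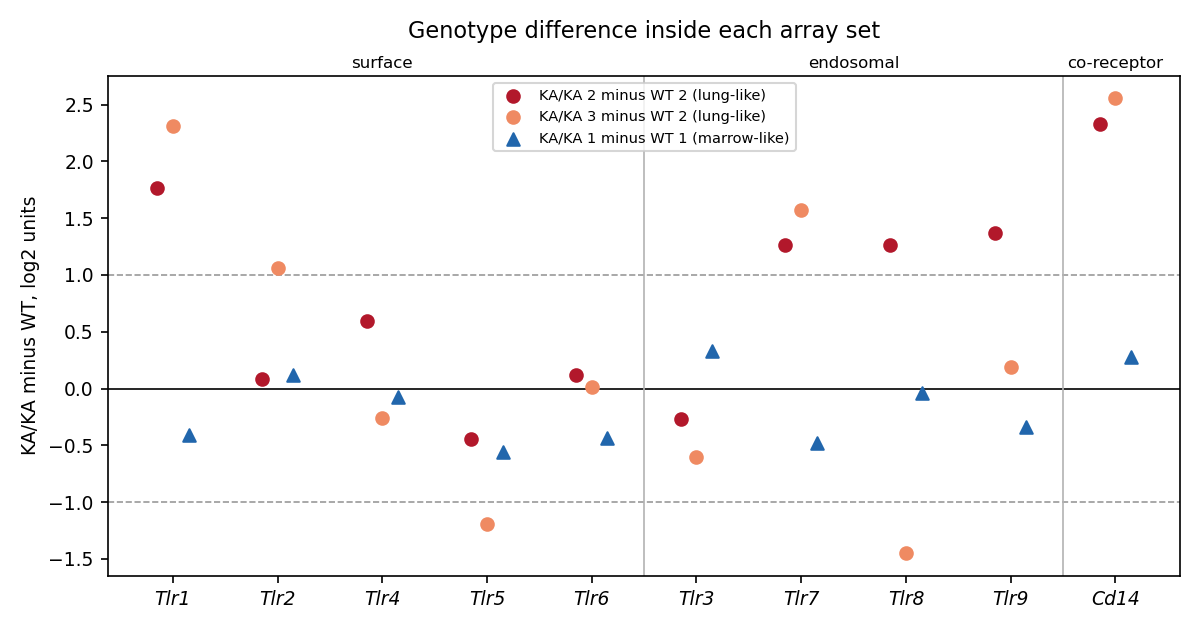
KA/KA minus WT for the lead probe set of each gene in log2 units, with circles for the 2 differences on the lung-like arrays and triangles for the marrow-like pair; dashed lines mark 1 log2 unit in each direction. Both circles of Tlr1, Tlr7 and Cd14 lie above 1, and no triangle leaves the band between the dashed lines.

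Over all 5 arrays, with the array set as a block, limma called 0 of 45037 probe sets (0% at a Benjamini-Hochberg adjusted p under 0.05), and its smallest adjusted p was 0.9997. At an unadjusted p under 0.05 there were 1439 probe sets, or 3.20%. Cd14 had the largest coefficient of the members, 1.52 ± 0.49 (KA/KA minus WT, ± SE, n = 3 and 2), with an unadjusted limma p of 0.0204 and an adjusted p of 0.9997. Cd14 was above the WT array of the same set on KA/KA 2 (by 2.33), KA/KA 3 (2.55) and KA/KA 1 (0.28). Among the members Tlr2 was so too (0.08, 1.06 and 0.12). The share of all probe sets with this pattern was not counted. Without WT 2 the Cd14 coefficient was 0.28, and that of Tlr1 -0.41 and of Tlr7 -0.48, since the marrow-like pair alone then sets them. Tlr1 stood at 0.99 ± 0.56, Tlr7 at 0.60 ± 0.46, Tlr2 at 0.38 ± 0.36 and Tlr5 at -0.71 ± 0.41 (± SE). Their 95% intervals ran from -0.38 to 2.35 for Tlr1, from -0.52 to 1.73 for Tlr7, from -0.49 to 1.25 for Tlr2 and from -1.71 to 0.30 for Tlr5, so each interval spanned 0. Tlr2 was the only member with every KA/KA array above both WT arrays, against 5.33% of all probe sets, and the margin was 0.065 log2 units; no member had every KA/KA array below both (4.95% of all probe sets). In a fit of 2 groups with no block limma also called 0 probe sets, with 568 at an unadjusted p under 0.05.

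Monocyte and macrophage, neutrophil and T cell markers were mostly higher on the same lung-like KA/KA arrays as Cd14, Tlr1 and Tlr7. Whether they account for these values was not tested. Over all 45037 probe sets, 21472 were higher on KA/KA 2 and 21921 on KA/KA 3 than on WT 2. On both arrays 2.96% were higher by 1 log2 unit or more. Of 12 monocyte and macrophage markers 12 were higher on KA/KA 2 and 12 on KA/KA 3 than on WT 2, 7 of them by 1 log2 unit or more on both arrays. Their summed signal was 118870 and 83483 on KA/KA 2 and KA/KA 3 against 37534 on WT 2, and no marker of the list lay within 1 log2 unit of a signal of 0. Of 11 neutrophil markers 8 and 10 were higher, with summed signals of 34360 and 74919 against 6871; Camp lay near 0 on WT 2 and Elane on KA/KA 2. T cell markers were higher for 7 of 7 on both arrays (summed signals 3744 and 9094 against 1570). Alveolar macrophage markers were higher for 4 of 8 on KA/KA 2 and 7 of 8 on KA/KA 3 (medians -0.06 and 0.60). Conventional dendritic cell markers were higher for 4 of 8 and 6 of 8 (medians 0.02 and 0.40). B-lineage markers were higher for 5 of 11 and 7 of 11 (medians -0.01 and 0.89), 3 of them by 1 log2 unit or more on both arrays. Of these, Vpreb1 lay near 0 on WT 2. Plasmacytoid dendritic cell markers were higher for 6 of 9 and 5 of 9 (medians 0.16 and 0.38), 2 of them by 1 log2 unit or more on both. Endothelial markers were lower for 10 of 10 on KA/KA 2 and for 7 of 10 on KA/KA 3 (medians -2.39 and -0.39). Fibroblast and smooth muscle markers were lower for 5 of 9 on KA/KA 2 and for 9 of 9 on KA/KA 3 (medians -0.79 and -0.73). In the marrow-like pair the summed signals were 65778 against 73359 for monocytes and macrophages, and 118130 against 178360 for neutrophils (KA/KA 1 against WT 1). By marker, 9 of 12 monocyte and macrophage markers were higher on KA/KA 1 (median 0.08). Lyz2, the brightest of that list, was lower there (15384 against 26330) and weighs most in its sum. Of 11 neutrophil markers 0 were higher on KA/KA 1 (median -0.54).

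**Figure D4:**
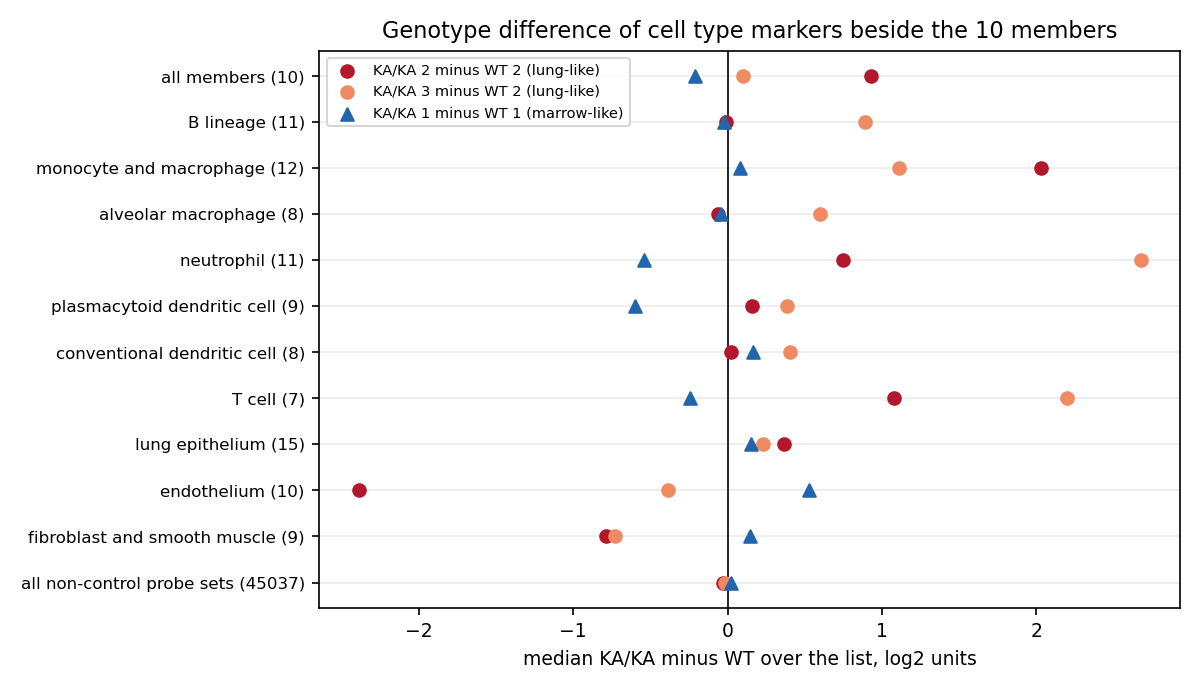
Median KA/KA minus WT in log2 units for the 10 members, for each list of cell type markers and for all non-control probe sets, with the number of measured genes or probe sets in brackets. Circles are the lung-like differences and triangles the marrow-like pair. Monocyte and macrophage, neutrophil and T cell lists lie to the right on both lung-like KA/KA arrays, and the endothelial and the fibroblast and smooth muscle lists lie to the left.

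The arrays also differed in Xist, the RNA made from the inactive X chromosome of female cells, a gene picked after its values were seen. One Xist probe set read 11.13 on KA/KA 1 and 11.60 on KA/KA 2, but 4.61 on KA/KA 3, 4.38 on WT 2 and 4.23 on WT 1. The labels give no sex. Tlr7 and Tlr8 are X-linked, and Tlr7 was as high on KA/KA 3 as on KA/KA 2 among the lung-like arrays, while Tlr8 was not (4.59 against 7.31). That Tlr8 value lay at the 9.35 percentile of KA/KA 3. In the marrow-like pair Xist was high on KA/KA 1 and low on WT 1, so there its difference cannot be told apart from genotype. Whether sex has a part in these values was not tested.

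Of the partners of the receptors, 3 of 10 were higher and 3 lower on the lung-like arrays, beside 20.1% and 15.5% of the brighter probe sets, among which all 10 fall. Cd36, a scavenger receptor that assists Tlr2 and Tlr6, was higher by 3.85 and Lbp, the plasma protein that carries lipopolysaccharide to Cd14, by 2.10. Lgmn, a protease that cleaves endosomal receptors, was higher by 1.48. Cd36 is also a known gene of endothelium. Ly86 and Cd180, a complex of B cells and myeloid cells related to Tlr4 and Ly96, were lower by the same account, with differences of -1.96 and -1.60. Ly96 itself differed by -0.12. Unc93b1, the chaperone that takes endosomal receptors to their place, read 10.83 and 10.02 on KA/KA 2 and KA/KA 3 and 9.65 on WT 2, against 11.45 on KA/KA 1 and 11.20 on WT 1. It was lower by 1.16 on the lung-like arrays, as Tlr7 and Tlr9 were and Tlr3 was not.

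Of 13 shared adaptors and kinases measured, 0 were higher and 1 lower between the sets (20.1% and 15.5% of the brighter probe sets), the B cell adaptor Pik3ap1 (-1.83), with a median of 0.07. Myd88 differed by 0.56 and Ticam1, the adaptor of Tlr3, by -0.12. Irak2 (0.87), Map3k7 (0.84) and Tab2 (-0.74) had the largest differences after Pik3ap1. Among the 3 transcription factors Irf5 was lower (-1.67), beside 15.5% of the brighter probe sets, and Irf7 (-0.33) and Irf3 (-0.01) were not. Of 8 inhibitors, Sarm1 was higher (1.09) and Dok3 lower (-2.58), beside 16.7% higher and 11.3% lower of all probe sets.

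For genotype, limma called 0 genes of these lists in either direction. By coefficient, Ikbke, a kinase downstream of Tlr3 and an NF-κB target, led the kinases with 1.37 ± 0.57 (SE). On the linear scale its signal was 465.3 and 1008 on KA/KA 2 and KA/KA 3 against 128.2 on WT 2, and 322.7 on KA/KA 1 against 291.0 on WT 1. Among the inhibitors Tnfaip3, the NF-κB feedback protein A20, led with 0.90 ± 0.37 and read, in log2 units, 11.04 and 11.32 against 9.68 on the lung-like arrays, but 10.35 against 10.24 in the pair. Lgmn (0.73 ± 0.58), Ly86 (0.65 ± 0.45), Ly96 (0.62 ± 0.35) and Unc93b1 (0.55 ± 0.33) led the partners, and Myd88 stood at 0.40 ± 0.30. Tlr13, a mouse endosomal receptor for bacterial RNA outside the 10 members, read 10.56 and 9.68 on KA/KA 2 and KA/KA 3 against 7.93 on WT 2, and 9.77 on KA/KA 1 against 9.15 on WT 1, with a coefficient of 1.52 ± 0.45. Tlr12, the other family member with a probe set, was dim.

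**Figure D5:**
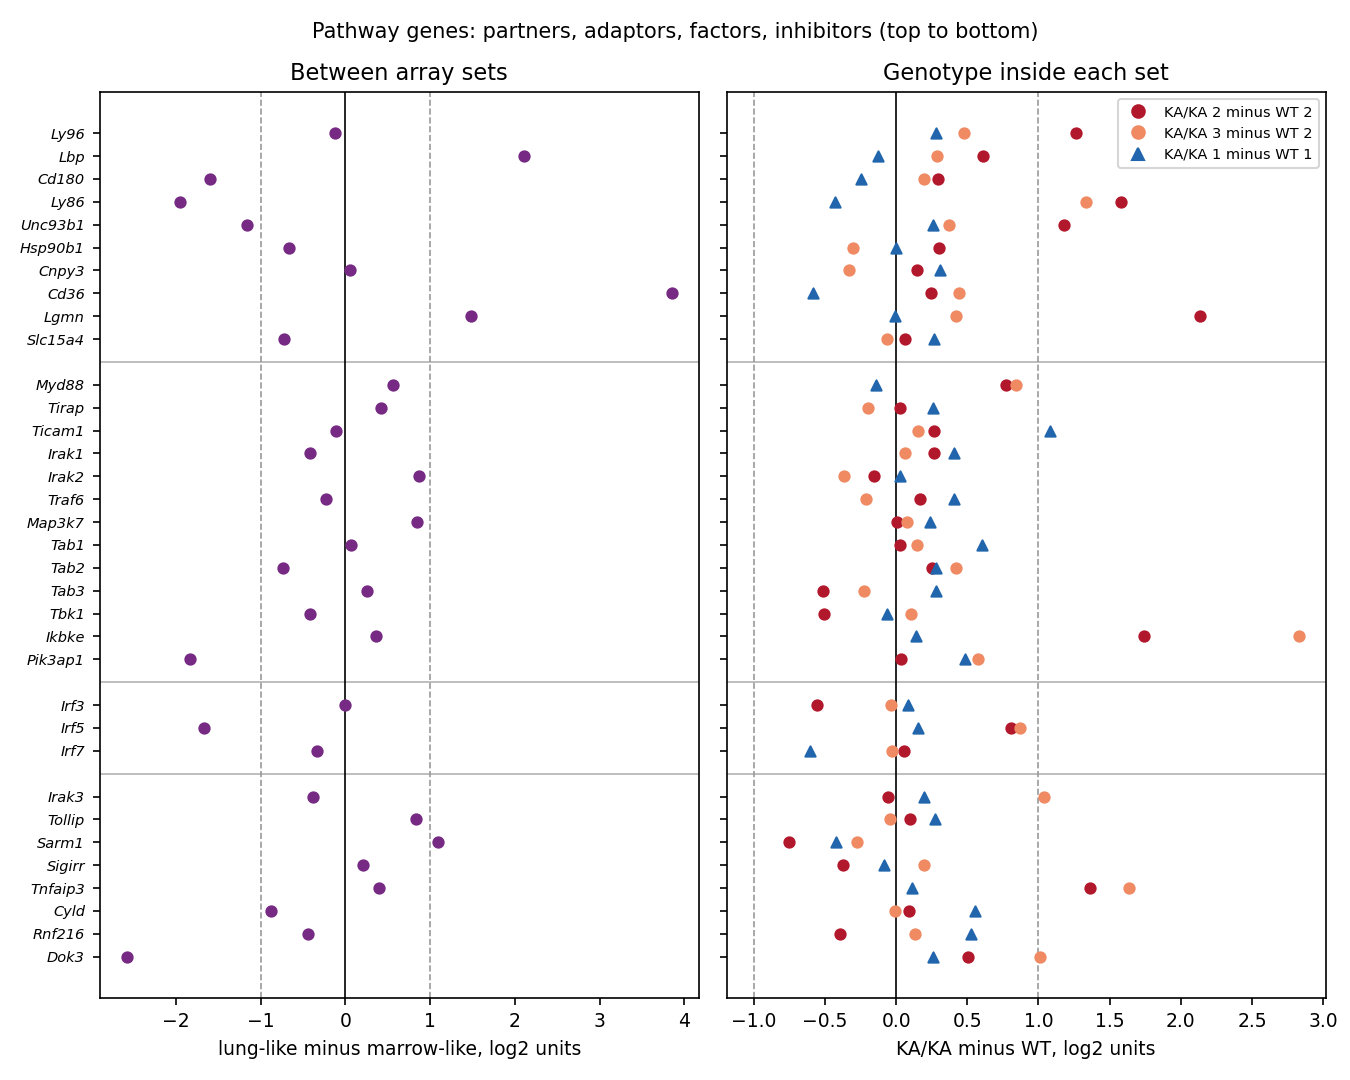
Lead probe sets of the pathway genes, with partners, adaptors and kinases, transcription factors and inhibitors from top to bottom. The left panel gives lung-like minus marrow-like and the right panel KA/KA minus WT in log2 units, with circles for the lung-like arrays and triangles for the marrow-like pair. Partners spread from -1.96 to 3.85 between the sets, while all adaptors and kinases but Pik3ap1 stay inside 1 log2 unit.

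Within the family Tlr1 and Tlr7 had the most similar profiles. The root-mean-square distance between their log2 profiles over the 5 arrays, each centred on its own mean, was 0.25 log2 units, ahead of Tlr4 with Tlr6 (0.31) and Tlr7 with Tlr9 (0.53). Among 13192 genes that reached the median of at least 1 array, the genes nearest to Tlr7 were Marchf1 (0.11), Aif1 (0.12) and Sla (0.13), and those nearest to Tlr1 were Ms4a6c (0.18), Cd52 (0.19) and AB124611 (0.19). Nearest to Tlr3 were Nfix (0.07), Rab34 (0.09) and Arhgef5 (0.11). Cd14 and Tlr8 had no close match. Ttc39c (0.29), Il21 (0.29) and Adamdec1 (0.30) came nearest to Cd14, and Bhlha15 (0.29), Pdia4 (0.34) and Ly6k (0.36) to Tlr8. Il21 lay near a signal of 0 on WT 2, KA/KA 1 and WT 1 (4.38, 4.12 and 4.21). The distance is not scaled to how much a gene varies. With 5 arrays such likeness is a description only.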

How the data were processed

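Total RNA, 150 ng per array, was labelled with biotin and hybridised to Affymetrix mouse arrays, per the labels' protocols. The deposited table gives intensities of 45101 probe sets per array. The submitters' processing notes name MAS5, with no version. The series text speaks of a log2 transformation, but the deposited values are linear (highest signals 21977 to 40821, trimmed mean 500.0 with 2% left out at each end), so log2(signal + 16) was computed from them. Detection calls were not used here. Precision is limited by the small number of arrays. The transcript of the mutated gene was not analysed here.

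The 64 control probe sets were left out. Of the others, 34945 had 1 gene symbol in the platform annotation, 932 had several and 9160 none; symbols were updated through RefSeq gene IDs. The array sets were drawn at a median log2 signal of 10 over the poly-A control probe sets. limma 3.58.1 in R 4.3.3 fitted genotype with the array set as a block (eBayes with trend, two-sided, Benjamini-Hochberg over all 45037 probe sets, threshold 0.05). On simulated data only its median coefficients were compared with the shifts put in. Its p-values and calls were not checked in this way. An exact permutation test over 3 against 2 arrays cannot go below 0.1 and was not run. The filter on dim probe sets (mean log2 at or above the median) was an alternative, which 7 of 10 members pass (not Tlr5, Tlr8 and Tlr9). All members were named, as were the pathway genes with the largest differences or coefficients of each list. The members, lists, array sets and tests were chosen with earlier results of these data known.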

Additional observations from a re-analysis of the deposited data

Results flagged for a closer look

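For 5 of the 10 members the lung-like KA/KA arrays both differed from WT 2 in 1 direction and KA/KA 1 from WT 1 in the opposite one, a pattern that 36.9% of all probe sets share. The genotype difference on the lung-like arrays minus that in the marrow-like pair was 2.45 log2 units for Tlr1, 1.89 for Tlr7, 1.12 for Tlr9, 0.50 for Tlr6 and -0.76 for Tlr3. In limma's interaction fit none of the 10 members passed: the adjusted p was 0.893 for Tlr1 and Tlr7 (unadjusted limma p 0.0155 and 0.0290), and the smallest adjusted p over all 45037 probe sets was 0.893 as well. That fit called 0 probe sets, with 2093 at an unadjusted p under 0.05. Its only replicate spread is that between KA/KA 2 and KA/KA 3. Cd14 kept its sign in both sets, with an interaction of 2.16 (adjusted p = 0.893, from limma).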

How the results depend on the processing

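Of the 6 members counted as apart between the array sets, Tlr3, Tlr7 and Cd14 stayed apart under every alternative tried; Tlr1 was lost without WT 2, Tlr9 with a constant of 64 or the filter on dim probe sets, and Tlr5 under both scalings, a constant of 64, that filter, and without KA/KA 1 or WT 2. Without KA/KA 2, Tlr8 was counted too. Median centring moved the median of all probe sets between the sets to -0.28, against 0.07 as deposited. The median difference of the surface receptors kept its sign (-0.59 to -0.05), while that of the endosomal receptors was 0.72 with the filter, because Tlr3 and Tlr7 alone remained in it, and -1.59 to -0.84 with 1 array left out. The members' median genotype difference on the lung-like arrays was 0.10 to 0.93 with 1 array left out. limma called 0 to 2 probe sets with 1 array left out and 2 with the replicate number as a block (the 2 Xist probe sets, against 0 reported). That replicate block sets KA/KA 3 aside. Arrays with the same number deviated together from their group means (r across probe sets 0.79 and 0.52), but so did KA/KA 3 and WT 2, whose numbers differ (0.65). The numbers coincide with the array sets, and the labels do not pair the mice. Without the array-set block the Tlr3 coefficient was 0.39; with the replicate block it was 0.028 and that of Tlr8 0.61; with a constant of 64 that of Tlr8 was 0.046. With 1 array left out, coefficients ran from -0.41 to 2.04 for Tlr1, -0.17 to 0.26 for Tlr4, -0.43 to 0.068 for Tlr6, -0.44 to 0.33 for Tlr3, -0.48 to 1.42 for Tlr7, -0.74 to 0.61 for Tlr8 and -0.34 to 0.78 for Tlr9. Those of Tlr2, Tlr5 and Cd14 kept their sign in all 11 alternatives. None of these coefficients passed the test in any alternative, and apart from fewer arrays the cause of the changes was not tested. Leaving out KA/KA 1 or WT 1 gave no value for the marrow-like pair, and leaving out WT 2 none for the lung-like arrays.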

Other observations

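Alveolar macrophage markers were higher on the lung-like arrays for 3 of 8 measured and lower for 0 (median difference 1.19). Over all probe sets 16.7% were higher and 11.3% lower by the same rule. The 3 genes were Siglecf, Car4 and Plet1, and the list overlaps other cells through Car4 and Plet1. Siglecf, the lectin that marks alveolar macrophages and eosinophils, read 9.38 and 9.57 on KA/KA 2 and KA/KA 3 and 8.99 on WT 2, against 6.84 on KA/KA 1 and 7.08 on WT 1. Marco, a scavenger receptor of macrophages that works beside Tlr2, overlapped between the sets and between KA/KA and WT. It read 4.81 and 10.35 on KA/KA 2 and KA/KA 3 and 4.64 on WT 2, against 9.004 on KA/KA 1 and 6.49 on WT 1. The KA/KA 3 array, high in Marco, also had the highest Tlr2 (10.23) and Irak3 (9.73), the inhibitory kinase of macrophages. KA/KA 1, also above WT 1 in Marco, was nearly level with it in Tlr2 (9.24 against 9.12) and Irak3 (9.50 against 9.30). A link between these genes was not tested. Chil3 read 14.78 and 14.86 on KA/KA 2 and KA/KA 3 and 13.35 on WT 2, against 14.05 on KA/KA 1 and 14.56 on WT 1.

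Among conventional dendritic cell markers, Itgax was higher by 2.63 and Fscn1 by 2.59 on the lung-like arrays. Others of the list went the other way: Flt3 (-1.03) without overlap, and Ccr7 (-1.44) and Cd209a (-0.63) with overlap. Fscn1, a protein of mature dendritic cells, had a genotype coefficient of 1.99 ± 0.38 (KA/KA minus WT, ± SE), larger than that of any Toll-like receptor member, and it too missed limma's adjusted threshold. The median coefficient of the list was 0.24, and that of Cd209a was -0.96 ± 0.35 (± SE).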
